A study of Mus musculus with 10 samples.

Results

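The 49 genes described here are cell proliferation genes, which encode the cyclins, kinases, replication factors and chromosome and spindle proteins that a cell makes when it copies its DNA and divides. They were chosen by symbol from a list of members, and all 49 were found among the 25232 genes of the authors' deposited table. That table compares the spinal cord of 5 SOD1 G93A mice with that of 5 wild type (WT) littermates, all of them female, 90 days old and labelled as C57BL/6. The SOD1 G93A mouse carries many copies of a human SOD1 transgene with a mutation found in familial amyotrophic lateral sclerosis (ALS), and its WT littermates carry none. The study placed the age of 90 days at an early symptomatic stage, and its methods name the lumbar region, whereas the labels give the spinal cord alone.

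In a dividing cell, cyclins D and E with their kinases free the E2F factors at the end of the G1 phase, and E2F switches on the genes of DNA replication for the S phase. The genes of mitosis follow later, under the DREAM and B-Myb complexes and FOXM1, through a promoter motif called CHR and a nearby CCAAT box to which NF-Y binds. In the adult spinal cord, neurons and mature oligodendrocytes have left the cell cycle, oligodendrocyte precursors go on dividing slowly, and microglia divide when they are activated.

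Expression is given here as the base mean, which the authors made by scaling the counts of each library by its size factor and averaging over the 10 libraries. Change is given as their log2 fold change, positive where SOD1 G93A mice had the higher level, with its standard error (SE). Values of single libraries were not analysed here, so no level per mouse or per group can be given. The error given for each gene is its deposited SE. At low genes this SE is itself reduced, as described below, and a small one is no sign of a precise value. The threshold for a call was an adjusted p-value of 0.05, with the Benjamini-Hochberg adjustment over the 16522 genes tested. The base means of the table sum to 22158933. Hox genes of the lumbar cord were present, with a base mean of 489 for Hoxc10, 235 for Hoxa10 and 152 for Hoxd10. These 3 were not called, with log2 fold changes of -0.04 (SE 0.03), -0.06 (SE 0.04) and -0.02 (SE 0.02). The deposited values at these 3 genes are drawn strongly towards 0, as described below, and do not show equal levels. Isl1 was not called either, at -0.05 (SE 0.09). Mnx1, a motor neuron gene of the same list, was called lower at -0.42 (SE 0.09, adjusted p-value 0.000135). In bulk tissue, more cells of a type and more RNA per cell cannot be told apart.

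Of the 49 members, 6 were called higher in SOD1 G93A mice and 0 were called lower. The 6 were Top2a, Mki67, Mcm3, Mcm5, Ccnb2 and Bub1b, and they stand at different points of the cycle, from the licensing of origins to the spindle checkpoint. Over all genes tested, 7.1% were called in either direction, 3.86% as higher and 3.24% as lower. The 6 members called make up 12.2% of the list. At an unadjusted p-value under 0.05 there were 14 members with a higher and 1 with a lower level, where 9.01% and 9.24% of all genes tested lay past the same limit in each direction. A positive fold change was listed for 38 of the 49 members, or 77.6%, and for 49.3% of all genes tested.

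Top2a, which encodes the topoisomerase that untangles DNA before chromosomes part, had the largest deposited change of the list. Its deposited log2 fold change was 0.58 (SE 0.09, 95% interval from that SE 0.40 to 0.76), or 1.49-fold, with an adjusted p-value of 1.97e-08. It ranked 103 from the top among the 16522 genes when these were ordered by the Wald statistic, which is the ratio of a fold change to its SE. Mki67, whose protein Ki-67 coats mitotic chromosomes and is the usual stain for dividing cells, rose by 0.42 on the log2 scale (SE 0.09), or 1.34-fold, with an adjusted p-value of 5.81e-05 and rank 216. These were the members with the smallest p-values, and the only ones of the 49 that were also called after the Holm adjustment, at 2.44e-06 for Top2a and 0.0169 for Mki67.

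As deposited, the other 4 calls were smaller, and their adjusted p-values were closer to the threshold. With the effect of a prior removed, as described below, this order of size depends on the solution. Mcm5 and Mcm3 encode subunits of the MCM2-7 helicase that opens DNA at replication forks. The log2 fold change of Mcm5 was 0.28 (SE 0.09, adjusted p-value 0.0308), and that of Mcm3 was 0.27 (SE 0.08, adjusted p-value 0.0253). Bub1b encodes BubR1, a protein of the spindle checkpoint that holds anaphase back, and its log2 fold change was 0.27 (SE 0.09, adjusted p-value 0.0486). Ccnb2 encodes a B-type cyclin that activates the mitotic kinase Cdk1, and its log2 fold change was 0.24 (SE 0.08, adjusted p-value 0.0402). Between these 4 genes the 95% intervals of the fold change overlapped, from 0.08 at the lowest bound, that of Ccnb2, to 0.46 at the highest, that of Mcm5. Just outside the threshold were Cdk2 at an adjusted p-value of 0.0549, E2f1 at 0.0575, with a negative fold change, and Ccnb1 at 0.0636.

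**Figure D1:**
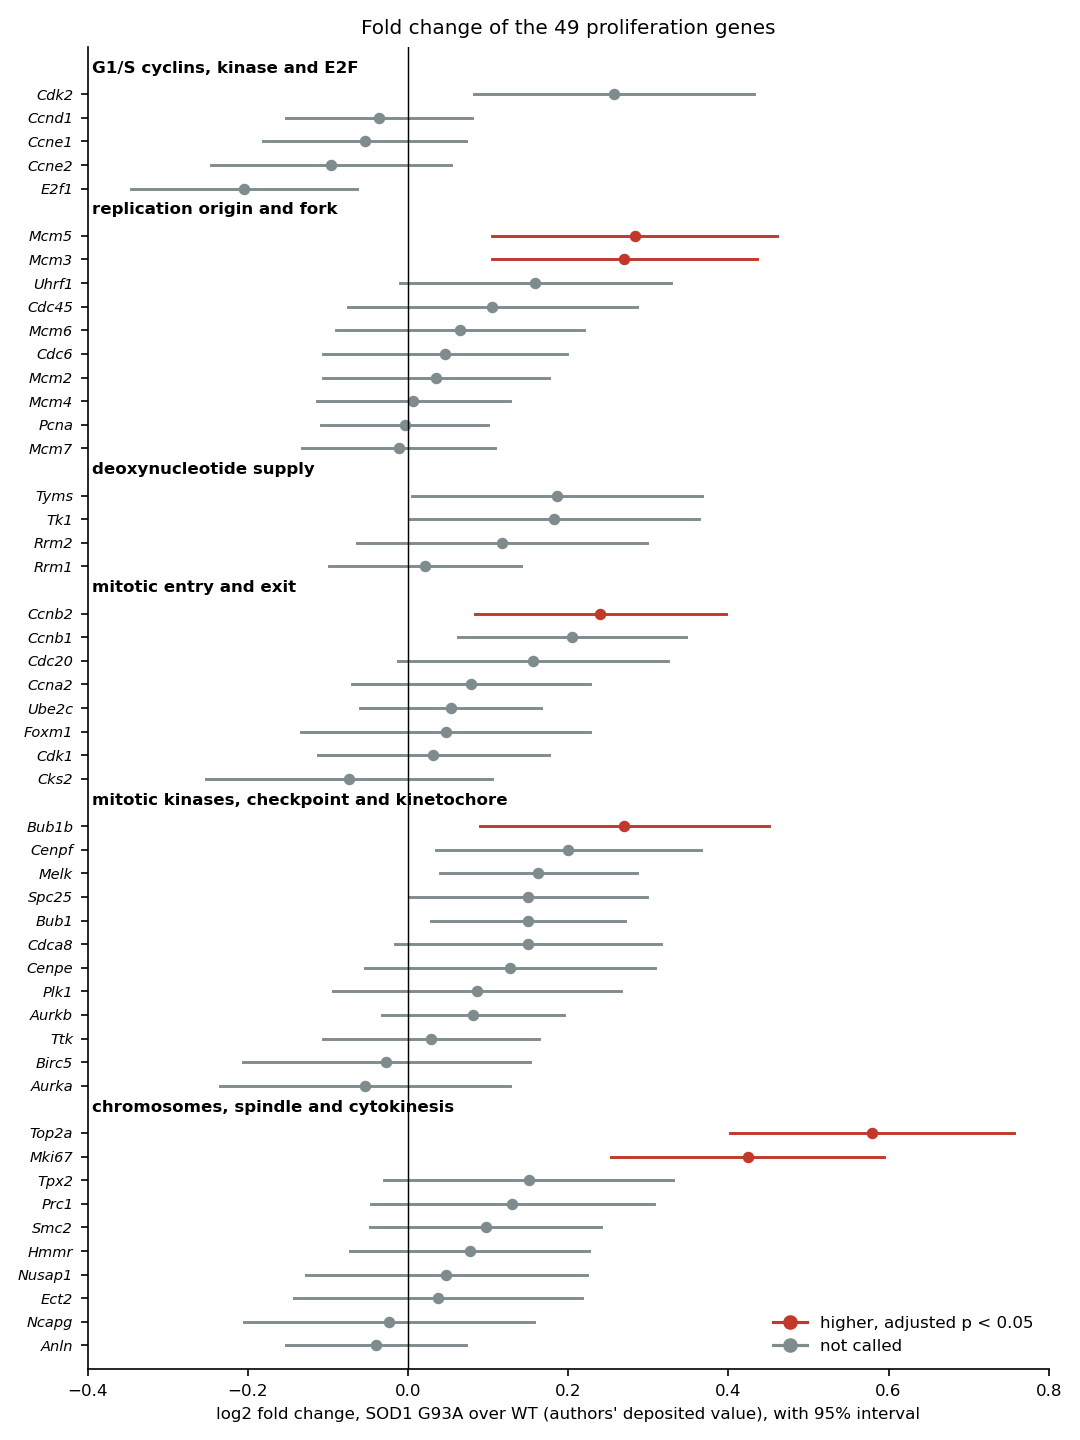
Log2 fold change (SOD1 G93A over WT) for the 49 members (points, authors' deposited values) with 95% intervals from the deposited SE (lines), grouped by role and ordered within each role. The 6 members called higher (red) lie between 0.24 and 0.58, and most of the other members have intervals that reach 0. The deposited SE is itself reduced at low genes, so short lines there do not mean precise values.

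The promoters of the 6 genes called are shown because the members are known as targets of E2F, NF-Y and the DREAM complex. Each runs from 250 bases before to the first 50 bases of the gene in RefSeq (GRCm38.p6), 5′ to 3′ on the strand of the gene. Capitals mark matches, on either strand, to the CCAAT box, to the CHR motif (TTTGAA or TTCGAA) and to an E2F motif (TTTCCCGC, TTTCGCGC, TTTGCCGC or TTTGGCGC).
Top2a, chr11:99024140-99024439, minus strand: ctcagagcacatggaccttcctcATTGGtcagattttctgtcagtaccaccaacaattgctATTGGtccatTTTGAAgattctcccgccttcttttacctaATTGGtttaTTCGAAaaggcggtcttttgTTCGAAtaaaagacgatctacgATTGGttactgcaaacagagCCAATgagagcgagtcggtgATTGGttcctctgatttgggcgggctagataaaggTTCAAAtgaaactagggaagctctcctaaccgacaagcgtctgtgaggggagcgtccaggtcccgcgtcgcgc
Mki67, chr7:135716330-135716629, minus strand: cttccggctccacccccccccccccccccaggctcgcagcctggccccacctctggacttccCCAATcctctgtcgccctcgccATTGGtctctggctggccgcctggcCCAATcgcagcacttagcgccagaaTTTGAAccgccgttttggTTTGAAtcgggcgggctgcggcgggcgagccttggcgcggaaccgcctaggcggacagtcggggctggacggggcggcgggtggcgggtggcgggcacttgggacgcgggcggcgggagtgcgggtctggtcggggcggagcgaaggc
Ccnb2, chr9:70421505-70421804, minus strand: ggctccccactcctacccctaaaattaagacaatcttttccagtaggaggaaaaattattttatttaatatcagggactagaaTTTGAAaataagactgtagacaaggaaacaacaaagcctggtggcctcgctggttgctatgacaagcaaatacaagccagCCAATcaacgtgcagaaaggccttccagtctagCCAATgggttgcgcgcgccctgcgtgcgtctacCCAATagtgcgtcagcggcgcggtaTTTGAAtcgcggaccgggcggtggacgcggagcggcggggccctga
Bub1b, chr2:118597961-118598260, plus strand: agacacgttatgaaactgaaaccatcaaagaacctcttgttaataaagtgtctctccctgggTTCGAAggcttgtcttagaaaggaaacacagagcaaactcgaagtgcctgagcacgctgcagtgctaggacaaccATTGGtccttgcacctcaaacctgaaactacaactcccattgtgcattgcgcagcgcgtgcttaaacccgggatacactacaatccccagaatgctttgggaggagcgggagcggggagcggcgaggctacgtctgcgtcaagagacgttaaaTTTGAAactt
Mcm3, chr1:20820263-20820562, minus strand: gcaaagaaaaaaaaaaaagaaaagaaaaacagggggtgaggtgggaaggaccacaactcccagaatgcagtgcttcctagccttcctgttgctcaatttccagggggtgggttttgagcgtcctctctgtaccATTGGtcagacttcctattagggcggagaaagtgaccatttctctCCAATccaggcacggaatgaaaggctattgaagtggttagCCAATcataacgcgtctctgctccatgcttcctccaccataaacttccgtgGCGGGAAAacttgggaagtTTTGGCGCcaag
Mcm5, chr8:75109259-75109558, plus strand: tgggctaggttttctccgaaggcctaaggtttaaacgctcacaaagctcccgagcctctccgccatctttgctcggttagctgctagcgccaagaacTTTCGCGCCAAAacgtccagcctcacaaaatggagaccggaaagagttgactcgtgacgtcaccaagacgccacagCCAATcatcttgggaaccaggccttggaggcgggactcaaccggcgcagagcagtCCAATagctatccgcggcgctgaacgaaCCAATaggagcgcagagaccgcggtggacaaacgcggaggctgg

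The 6 promoters fell into 2 kinds. Those of the mitotic genes Top2a, Mki67, Ccnb2 and Bub1b held CHR matches and no E2F match, and those of the helicase genes Mcm3 and Mcm5 held E2F matches and no CHR match. All 6 held a CCAAT box. In Mcm5 a pair of E2F matches on opposite strands overlapped in 1 run of capitals. In Top2a the window held 6 CCAAT boxes and 4 CHR matches.

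Among all members, 42 of 49 had a promoter in the RefSeq table, and 12895 of the genes tested had one. A CHR match lay in 23 of the 42 promoters (54.8%), against 16.3% of the promoters of all genes tested, and a CCAAT box in 33 of them (78.6%), against 42.2%. An E2F match lay in 9 of the 42 (21.4%), against 4.23%. The motifs differed between the roles. Of the 16 promoters of G1/S, replication and nucleotide genes, 7 held an E2F match (43.8%) and 3 a CHR match (18.8%), whereas of the 26 promoters of mitosis and chromosome genes, 2 held an E2F match (7.69%) and 20 a CHR match (76.9%). The E2F matches of the former lay in 6 of 9 promoters of the replication origin and fork, 1 of 3 of the G1/S genes and 0 of 4 of deoxynucleotide supply. A CHR match and a CCAAT box together lay in 22 promoters, most of them of genes that were not called, such as Plk1, Aurka, Cdc20 and Prc1. A match to these letters is no proof of binding, and the lack of one does not show that a site is absent. Only the exact letters given above were searched.

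**Figure D2:**
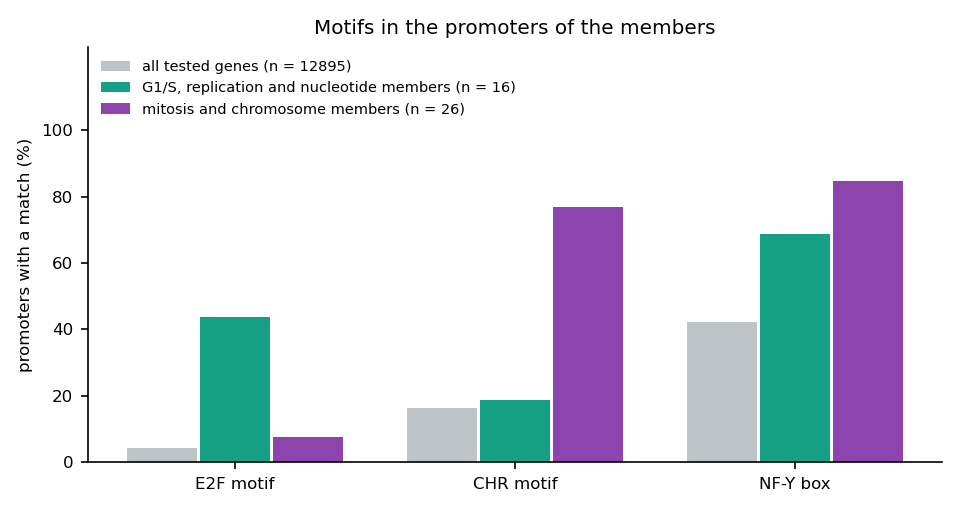
Share of promoters (%, vertical axis) with a match to the E2F motif, the CHR motif or the NF-Y box, for all genes tested (grey, n = 12895), for members of G1/S, replication and nucleotide supply (green, n = 16) and for members of mitosis and chromosomes (purple, n = 26). E2F matches are most frequent in the green bars (43.8%) and CHR matches in the purple bars (76.9%).

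Most members were expressed at low levels. The median base mean of the 49 was 56.6, where that of all genes tested was 471, and 45 of the 49 lay below the latter. Anln alone, which encodes the cytokinesis scaffold anillin and is also made by myelinating oligodendrocytes, had a base mean of 4490 and held 40.1% of the summed base mean of the list. Levels of different genes were compared per kilobase of annotated exon (GENCODE M21). On that scale Anln was highest at 495, followed by Pcna, the sliding clamp of DNA polymerase, at 330, Ccnd1, which encodes cyclin D1, at 251, Ccne1 at 128 and Mcm4 at 114. The lowest were Bub1 at 1.80, Ttk at 1.87 and Cenpf at 1.88 per kilobase, all of them genes of the spindle checkpoint or the kinetochore. The genes called lay in between, with 30.6 for Mcm3 and for Bub1b, 26.9 for Mcm5, 10.8 for Ccnb2, 6.64 for Mki67 and 6.36 for Top2a.

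**Figure D3:**
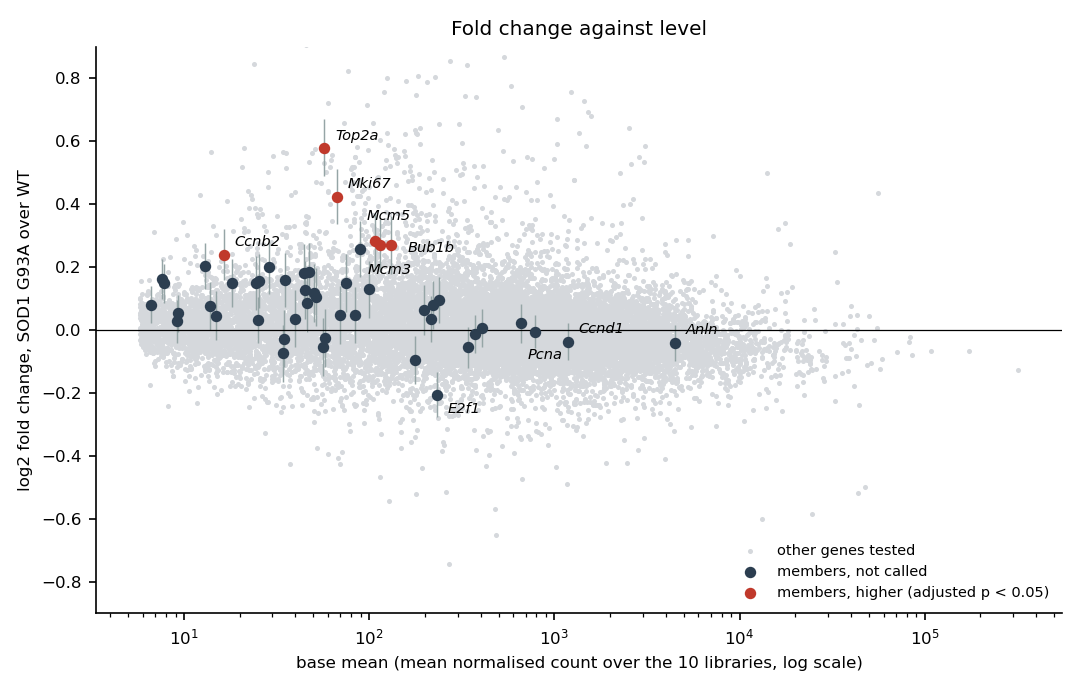
Log2 fold change (SOD1 G93A over WT) (vertical axis) against base mean (horizontal axis, log scale) for all genes tested (grey), members called higher (red) and members not called (dark), with lines of 1 SE for the members. The members with positive fold changes sit mostly below a base mean of 100, and the well expressed Pcna, Ccnd1 and Anln lie near 0; 17 genes beyond 0.9 either way are not shown.

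The direction of the fold changes differed with level. Among the 33 members with a base mean under 100, 29 had a positive fold change (87.9%), with a median of 0.13 on the log2 scale, where 2297 of the 3961 genes tested below that level had one and their median was 0.02. Of these 33, 3 were called higher (9.09%), against 4.01% of all genes tested at that level. Among the 16 members with a base mean of 100 or more, 9 had a positive fold change (56.2%), with a median of 0.01, where 46.5% of all genes tested at that level had one and their median was -0.01. Of these 16, 3 were called higher (18.8%), against 3.81% of all genes tested at that level. No test of the difference between the 2 levels was made.

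The group of G1/S cyclins, their kinase and E2F held no call among 5 genes, and 4 of its 5 fold changes were negative. The groups by role are small, so the count of calls in each says little beside the 7.1% of all genes tested. Cdk2, the kinase of cyclins E and A, had a log2 fold change of 0.26 (SE 0.09). E2f1, the transcription factor that drives S phase genes, had one of -0.21 (SE 0.07), the most negative of the list. Ccnd1 was listed at -0.04 (SE 0.06), and the cyclin E genes Ccne1 and Ccne2 at -0.05 (SE 0.06) and -0.10 (SE 0.08). Exons of Ccnd1 and Ccne2 overlap a gene on the opposite strand, over 23.4% and 17.4% of their exonic length, and the strand setting of the counting is not given in the sources used here.

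Of the 10 genes of the replication origin and fork, 2 were called, Mcm3 and Mcm5. The other subunits of the same helicase were not called. Their log2 fold changes were 0.06 for Mcm6 (SE 0.08), 0.04 for Mcm2 (SE 0.07), 0.01 for Mcm4 (SE 0.06) and -0.01 for Mcm7 (SE 0.06). The deposited 95% interval of Mcm3 reached down to 0.10 and that of Mcm7 up to 0.11, so these intervals met. With the effect of a prior removed, as described below, they did not meet, with bounds of 0.15 for Mcm3 and 0.12 for Mcm7. No test of the difference between subunits was made. The base means of the helicase genes ran from 107 for Mcm5 to 408 for Mcm4. Pcna was listed at 0.00 (SE 0.05, 95% interval -0.11 to 0.10), Cdc45 at 0.11 (SE 0.09) and Cdc6, which loads the helicase, at 0.05 (SE 0.08). Uhrf1, which carries DNA methylation over to the new strand, was listed at 0.16 (SE 0.09, adjusted p-value 0.321).

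All 4 genes of deoxynucleotide supply had a positive fold change, and none was called. Tyms, thymidylate synthase, had a log2 fold change of 0.19 (SE 0.09, unadjusted p-value 0.0444, adjusted 0.258), and Tk1, thymidine kinase, one of 0.18 (SE 0.09, unadjusted p-value 0.0479, adjusted 0.268). The subunits of ribonucleotide reductase were listed at 0.12 (SE 0.09) for Rrm2, the subunit tied to S phase, and at 0.02 (SE 0.06) for Rrm1.

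In mitotic entry and exit, 1 of 8 genes was called, Ccnb2. The closest to it was Ccnb1, with a log2 fold change of 0.20 (SE 0.07). The kinase that both cyclins activate, Cdk1, was listed at 0.03 (SE 0.07, adjusted p-value 0.891) at a base mean of 25.1. Cdc20 and Ube2c, which act with the anaphase-promoting complex, were listed at 0.16 (SE 0.09) and 0.05 (SE 0.06). Ccna2 was listed at 0.08 (SE 0.08), the transcription factor Foxm1 at 0.05 (SE 0.09) and the Cdk subunit Cks2 at -0.07 (SE 0.09). Ccna2 and Ube2c share 12.5% and 22.8% of their exonic length with genes on the opposite strand.

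Of the 12 mitotic kinases, checkpoint and kinetochore genes, 10 had a positive fold change and 1 was called, Bub1b. Another 4 had unadjusted p-values under 0.05 that did not pass the adjustment. These were Cenpf, a kinetochore protein, at 0.20 (SE 0.08), the kinase Melk at 0.16 (SE 0.06), Spc25, a subunit of the NDC80 complex, at 0.15 (SE 0.08) and the checkpoint kinase Bub1 at 0.15 (SE 0.06). Their adjusted p-values ran from 0.102 for Melk to 0.266 for Spc25. Cdca8 and Birc5, which work with Aurora B at the centromere, were listed at 0.15 (SE 0.08) and -0.03 (SE 0.09), and Aurkb itself at 0.08 (SE 0.06). The motor Cenpe stood at 0.13 (SE 0.09), Plk1 at 0.09 (SE 0.09), Ttk at 0.03 (SE 0.07) and Aurka at -0.05 (SE 0.09).

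Among the 10 genes of chromosomes, spindle and cytokinesis, Top2a and Mki67 were called and 8 were not. The condensin genes Smc2 and Ncapg were listed at 0.10 (SE 0.07) and -0.02 (SE 0.09). The spindle genes Tpx2, Hmmr and Nusap1 had log2 fold changes of 0.15 (SE 0.09), 0.08 (SE 0.08) and 0.05 (SE 0.09). Prc1, Ect2 and Anln act at the division plane and were listed at 0.13 (SE 0.09), 0.04 (SE 0.09) and -0.04 (SE 0.06). Of the exonic length of Top2a, 1.4% overlaps another gene on the same strand, and Mki67, Mcm3, Mcm5, Ccnb2 and Bub1b have no such overlap.

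The deposited fold changes of low genes are smaller than the counts behind them would give. The SE never exceeded 0.0924, and 355 genes, with base means from 43.0 to 6617, lay within 0.0001 of this ceiling. This is the form that a normal prior centred on 0 gives, and a ceiling of that height corresponds to a prior with an SD of 0.185 on the log2 scale. With a prior of this form the Wald statistic is the same with and without it, so no call depends on it. When its effect was removed, the log2 fold change of Ccnb2 went from 0.24 to 0.96 and that of Mcm3 from 0.27 to 0.38. For 17 members a second solution was near enough to be listed, and both are given here for those that were called. Top2a came to 1.45 or 0.96, Mki67 to 1.29 or 0.63, Mcm5 to 0.48 or 0.69 and Bub1b to 0.50 or 0.59. In linear terms Top2a was then 2.74-fold or 1.95-fold higher, and Mki67 2.44-fold or 1.55-fold. The prior kept 3.35% of the change at Hoxc10, 4.87% at Hoxa10 and 1.37% at Hoxd10, far less than at members of like base mean such as Mcm4 and Bub1b. Without it, their log2 fold changes were -1.28 (SE 0.99), -1.14 (SE 0.82) and -1.80 (SE 1.57), so the libraries spread widely at these lumbar genes. The part of that spread in the results for the members was not tested.

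The same step shows how little the data bear on the rarest members. The counts and medians that follow use the first solution alone. For 26 of the 49 the prior kept less than 50% of the change. Among low genes that were not called, Melk went from 0.16 to 1.22 (SE 0.47), Bub1 from 0.15 to 1.16 (SE 0.48) and Ccnb1 from 0.20 to 1.07 (SE 0.38). The SE also grew without the prior, from 0.07 to 0.37 at Cdk1 and from 0.06 to 0.53 at Ube2c. For 11 of the 43 members not called, the 95% interval without the prior reached a 2-fold rise, so a rise of that size is compatible with their values. For 6 members, Pcna, Ccnd1, Mcm4, Mcm7, Rrm1 and Anln, the interval without the prior stayed within 0.2 on the log2 scale either way. The median of the 49 members went from 0.08 as deposited to 0.21, and that of all genes tested was 0.00 in both.

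**Figure D4:**
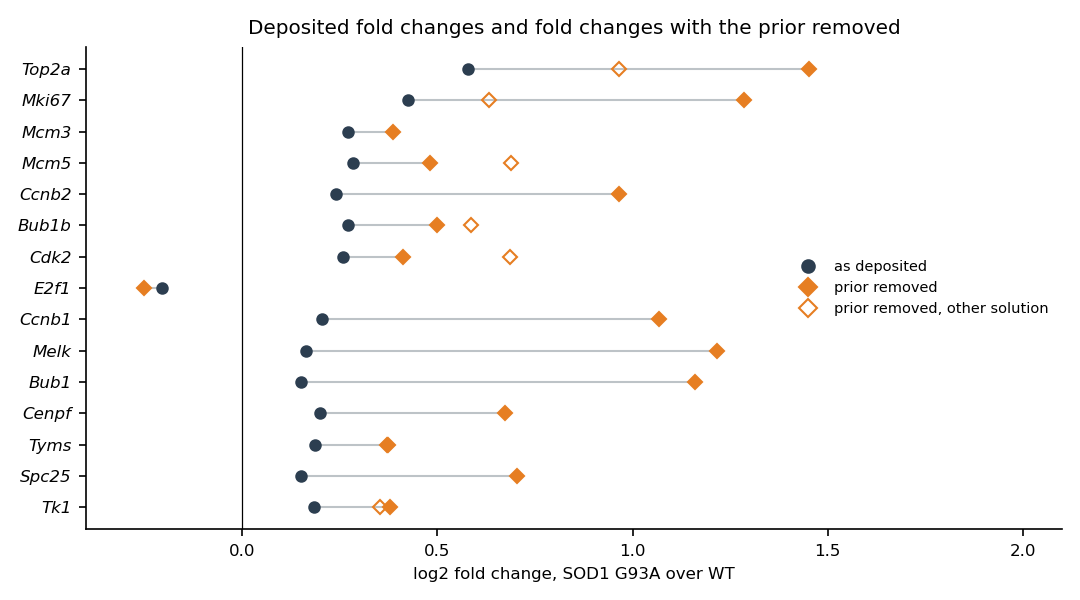
Log2 fold change (SOD1 G93A over WT) for the 15 members with an unadjusted p-value under 0.05, as deposited (dark circles), with the effect of the prior removed (filled diamonds) and, where a second solution was near, with that solution (open diamonds). Ccnb2, Ccnb1, Melk and Bub1 move to about 1 or above, and E2f1 is the only one below 0.

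Other genes of the cell cycle were taken from 4 lists that hold no member. Of the 104 tested, 3 were called higher (2.88%), near the 3.86% of all genes tested. The 104 include 14 inhibitors, and the inhibitor Rb1 is 1 of the 3. Of 31 other S phase genes, 0 were called by the authors' DESeq2 model, with 1 at an unadjusted p-value under 0.05, Wdr76 at 0.20 (SE 0.09). Of 33 other G2 and M phase genes tested, 0 were called higher and 1 lower, Tubb4b, a tubulin gene also expressed outside the cell cycle, at -0.21 (SE 0.04, adjusted p-value 6.80e-05). Cdca2, a chromatin regulator of mitosis, was listed at 0.19 (SE 0.07, adjusted p-value 0.0763). The median log2 fold change was 0.06 over the S phase list and 0.09 over the G2 and M phase list. It was 0.08 over the members and -0.001 over all genes tested. Of the S phase and the G2 and M phase genes, 71.0% and 72.7% had a positive fold change, against 49.3% of all genes tested.

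Upstream of the members, 2 of 26 G1 regulators and licensing factors were called higher (7.69%), against 3.86% of all genes tested. Ccnd2, which encodes cyclin D2, had a log2 fold change of 0.24 (SE 0.08, adjusted p-value 0.0239), and its kinase Cdk6 one of 0.30 (SE 0.09, adjusted p-value 0.0202). Cdk4 was listed at 0.15 (SE 0.05, adjusted p-value 0.0585). Of 14 inhibitors tested, 1 was called (7.14%), against 7.1% of all genes tested in either direction. It was Rb1, which encodes the retinoblastoma protein that holds E2F back, at 0.16 (SE 0.05, adjusted p-value 0.0198). Cdkn1a, which encodes the inhibitor p21, was listed at -0.20 (SE 0.09, adjusted p-value 0.178).

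Markers of microglia moved in the same direction as the members called. Of all genes tested, 3.86% were called higher and 3.24% lower, and 9.01% and 9.24% had unadjusted p-values under 0.05 in these directions. Of 10 microglial markers, 9 were higher, with a median log2 fold change of 0.51 and a summed base mean of 11453, among them Csf1r at 0.53 (SE 0.05), C1qa at 0.69 (SE 0.06) and Trem2 at 0.74 (SE 0.08), and only P2ry12 at 0.15 (SE 0.07) was not called. Of 6 astrocyte markers, 4 were higher, with Gfap at 0.44 (SE 0.09) and a summed base mean of 86409. Of 7 markers of oligodendrocyte precursors, the dividing cells of the resting cord, 0 were called, and 3 had a positive fold change at an unadjusted p-value under 0.05. These were Ptprz1 at 0.11 (SE 0.04, adjusted p-value 0.0512), C1ql1 at 0.21 (SE 0.08, adjusted p-value 0.111) and Gpr17 at 0.15 (SE 0.07, adjusted p-value 0.241). The defining markers Pdgfra and Cspg4 were listed at 0.03 (SE 0.05) and -0.01 (SE 0.07). The summed base mean of all 7 precursor markers was 11713. Of 8 oligodendrocyte, 6 vascular and 5 ependymal markers, 0 were called, with 2, 2 and 1 at an unadjusted p-value under 0.05. Lists this short can hold 0 calls at the share of all genes tested, so a count of 0 says little. Of 7 neuronal markers, 4 were lower and 1 was higher. Markers of lymphocytes and monocytes were near the limit of the table, with base means from 1.26 for Cd3g to 10.6 for Cd79a, and 0 of the 4 tested were called, with 0 at an unadjusted p-value under 0.05. Which cells carried the rise of Top2a, Mki67 and the other members was not tested.

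**Figure D5:**
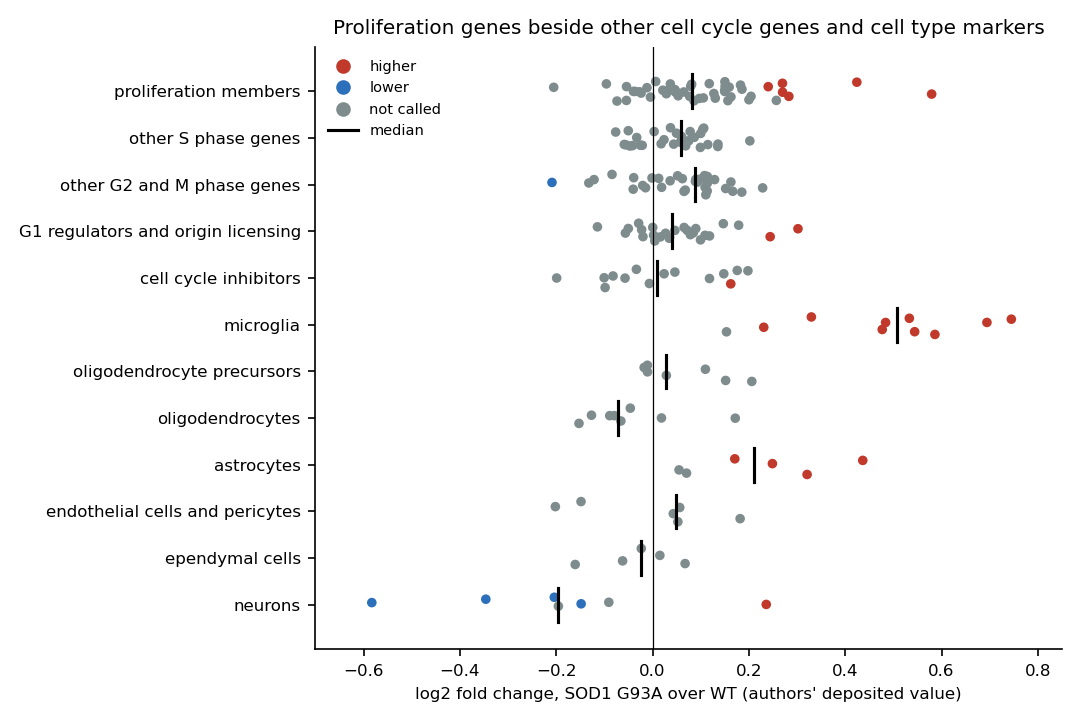
Log2 fold change (SOD1 G93A over WT) (horizontal axis) for each tested gene of the member list, of the 4 lists of other cell cycle genes and of the marker lists of 7 cell types, with the median of each list as a black bar. Red and blue points are genes called higher and lower. The members' median is 0.08, that of the microglial markers 0.51 and that of the oligodendrocyte precursor markers 0.03.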

How the data were processed

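Spinal cord RNA of 5 SOD1 G93A and 5 WT mice was sequenced from stranded mRNA libraries. According to the methods and the submitters' processing notes, the authors filtered reads with Fastp, aligned them to mm10 with HISAT2 2.1.0, counted the reads that mapped uniquely with featureCounts 2.0.2 and compared the groups with DESeq2. Annotation, strand setting and any prior on fold changes are not given in the sources used here. The authors deposited 1 table. Its base mean is a signal that the authors made by averaging scaled counts over the libraries. The authors' model gave the log2 fold change and its standard error. The Wald statistic, a score, is the authors' ratio of the deposited fold change to its standard error, and the p-value and its adjustment were computed by the authors from it. These columns hold the outcome of the authors' comparison and are the only values for the members, so they were used as deposited. The number of other columns of single libraries left unused was 0, and the depth of each library is not known here.

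Benjamini-Hochberg values were computed anew over the 16522 genes with a deposited adjusted p-value. They differed from the deposited ones by at most 1.93e-06. The prior SD was taken as 2 times the largest standard error. Of the pair of solutions for the information behind a standard error, one beyond the counting limit was dropped, the one nearest the trend of dispersion on base mean was kept, and the other was given where its dispersion lay within 4-fold of the trend. The removal of the prior was tested on simulated data for this comparison, with 17333 genes. The kept solution was compared with the simulated estimate before the prior, which held sampling noise, and not with the true fold change put in. The kept solution came within 10% of that estimate for 99.8% of genes where dispersions scattered little around the trend (natural log SD of 0.2). This share was 96.0% where they scattered widely (SD of 1). These shares are over all 17333 genes. No counts were simulated, and the simulated standard errors and Wald statistics were made with the same formulas that the removal inverts. The shares therefore measure only the choice between the solutions. Whether the authors' model held such a prior cannot be seen from them. The share among genes with a second solution, as listed for 17 members, was not tested. All members are named, and in the other lists the genes called and the 2 with the smallest p-values, with further genes chosen after their values were seen. The members and lists were chosen with earlier results of these data known. Alternatives were thresholds of 0.01 and 0.1, other sets of genes for the adjustment, the Holm adjustment, re-centring, other summaries of the members and removal of the prior. Another 3 were added after seeing the data. Exons were taken from GENCODE M21. Python 3.11.15, numpy 2.4.6, pandas 2.3.3 and scipy 1.17.1 were used.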

Additional observations from a re-analysis of the deposited data

How the results depend on the processing

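Of the 6 members called, 2 were called at a threshold of 0.01 and 2 with the Holm adjustment, Top2a and Mki67 in both. When the adjustment took in only genes with base means from 100 upward, there were 3, since Top2a, Mki67 and Ccnb2 lie below that level and were not tested. The count was 9 at a threshold of 0.1, with Cdk2, Ccnb1 and, lower in SOD1 G93A, E2f1 added. When every gene with a p-value entered the adjustment, it was 4, without Ccnb2 and Bub1b. Re-centring on the median of all genes tested and a minimum base mean of 10 each left the 6 calls. Of the 33 members whose exons share no base with another gene, 5 were called. Of the 4 other cell cycle genes called, 1 was called at 0.01 and 1 with the Holm adjustment, Tubb4b. Of the 19 markers called, 18 of cell types and Mnx1 of the lumbar list, 12 were called with the Holm adjustment. The share of all genes called at these other thresholds and adjustments was not computed, so the counts are not set against it. The median log2 fold change of the members was 0.08, went to 0.21 with the prior removed, and lay between 0.01, over members from a base mean of 100 upward, and 0.13, over those under 100.

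No paired analysis was possible because the deposited table holds no values of single libraries. For the same reason no fit without a replicate was run, and whether 1 mouse carries a call was not tested. The p-values rest on the authors' model, and the low base means limit what can be detected.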
